A study of Mus musculus with 11 samples.

Results

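The comparison set 3 arrays of M1 macrophages directly against 3 arrays of M2a macrophages, 6 of the 11 arrays in the series, with the 5 M0 arrays left out of the test. Both states were grown from bone marrow of C57BL/6 mice aged 7 weeks that carry the Rag1-/- genotype, which leaves them without mature B and T cells. M1 cells received IFN-g together with LPS (the latter for the last 24 h), M2a cells received IL-4 together with IL-13, and M0 cells received no cytokine. Every culture lasted 7 days and was sorted for F4/80, a surface protein of mouse macrophages encoded by Adgre1, before total RNA was labelled for an Affymetrix mouse array. Among the probe sets assigned to a single gene symbol, that with the highest mean of the 11 arrays stood for the gene, which gave 18193 genes. The labels number the replicates without saying whether they came from separate mice or cultures, so the p-values reflect the spread among these arrays alone, which may be technical. In RNA from whole cultures, fewer cells of a type and less RNA per cell cannot be told apart.

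IFN-g acts through JAK kinases, and LPS acts through the receptor TLR4 and NF-kB. Macrophages given both are known for inflammatory cytokines, chemokines, antigen presentation and nitric oxide. IL-4 and IL-13 act through the IL-4 receptor alpha chain and STAT6, and macrophages given them are known for arginase, lectin receptors, chitinase-like proteins and matrix remodelling. The direct comparison asks which genes separate these states from each other, as opposed to from untreated cells.

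The arrays of each state were close to each other. Across genes, the correlation between arrays was 0.997 to 0.998 within M1, 0.996 to 0.998 within M2a and 0.922 to 0.927 between the states. The SD of the median gene was 0.082 in M1 and 0.086 in M2a on the log2 scale. Control probe sets also moved with the state. The actin controls had 5' minus 3' differences of 0.13 to 0.18 in M1 and -0.63 to -0.53 in M2a, those of Gapdh were 0.55 to 0.61 and -0.35 to -0.27, and the 18S ribosomal RNA controls averaged 6.15 to 6.30 and 8.51 to 8.64. The spiked poly-A controls averaged 5.27 to 5.37 in M1 and 5.93 to 6.11 in M2a. These control differences and the cytokine states cannot be told apart in this design.

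M2a replicate 3 stood apart from the other arrays at a few genes, which were singled out after their values were seen. Xist, the RNA that coats the inactive X chromosome, lay at 11.0025 there and at 5.37 to 5.98 in the other 5 arrays of the comparison. The Y-linked gene Eif2s3y lay at 8.48 in M2a replicate 3 and at 8.48 to 8.96 in the other 5. Il10rb, a subunit of the IL-10 receptor, lay at 5.46 in that array and at 10.51 to 10.74 in the other 5. This gap was on 1 probe set: the second Il10rb probe set lay at 5.43 in M2a replicate 3, at 5.71 and 5.99 in the other M2a arrays and at 7.23 to 7.47 in M1. In M2a replicate 3, 35 genes lay more than 1 log2 unit from the mean of the other 2 arrays of its state, against 0 to 12 genes in each of the other arrays. Calls of named genes that changed without it are given beside the gene or in the closing section.

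**Figure D1:**
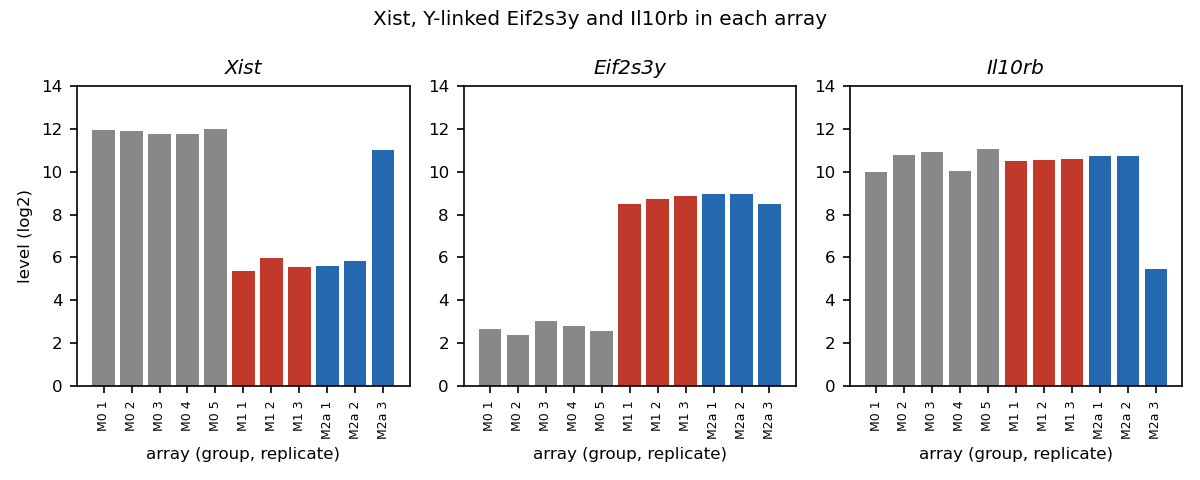
Log2 level (vertical axes) of Xist, Eif2s3y and Il10rb in each of the 11 arrays, 1 bar per array, coloured by group (grey M0, red M1, blue M2a). M2a replicate 3 combines Xist at 11.0025 with Eif2s3y at 8.48 and has the lowest Il10rb, at 5.46, while the M0 arrays have Eif2s3y at 2.36 to 3.02.

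The states differed at most of the measured genes. At an adjusted p under 0.05 in limma, 10357 of 18193 genes (56.9%) were called, 4914 (27%) higher in M1 and 5443 (29.9%) higher in M2a. A difference of at least 2-fold among the called genes was found for 2037 genes (11.2%), 1031 (5.67%) higher in M1 and 1006 (5.53%) higher in M2a. The 2-fold counts were nearly even, but the largest differences were more often on the M1 side. At least 16-fold differences were found for 113 genes higher in M1 and 57 higher in M2a, and at least 64-fold differences for 30 and 7. The median difference over all genes, M1 minus M2a, was -0.02. Without M2a replicate 3, 2025 genes were called at 2-fold, of which 1932 were also among the 2037. With the M0 arrays in the fit the count of called genes dropped to 5341, while 1998 were called at 2-fold.

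**Figure D2:**
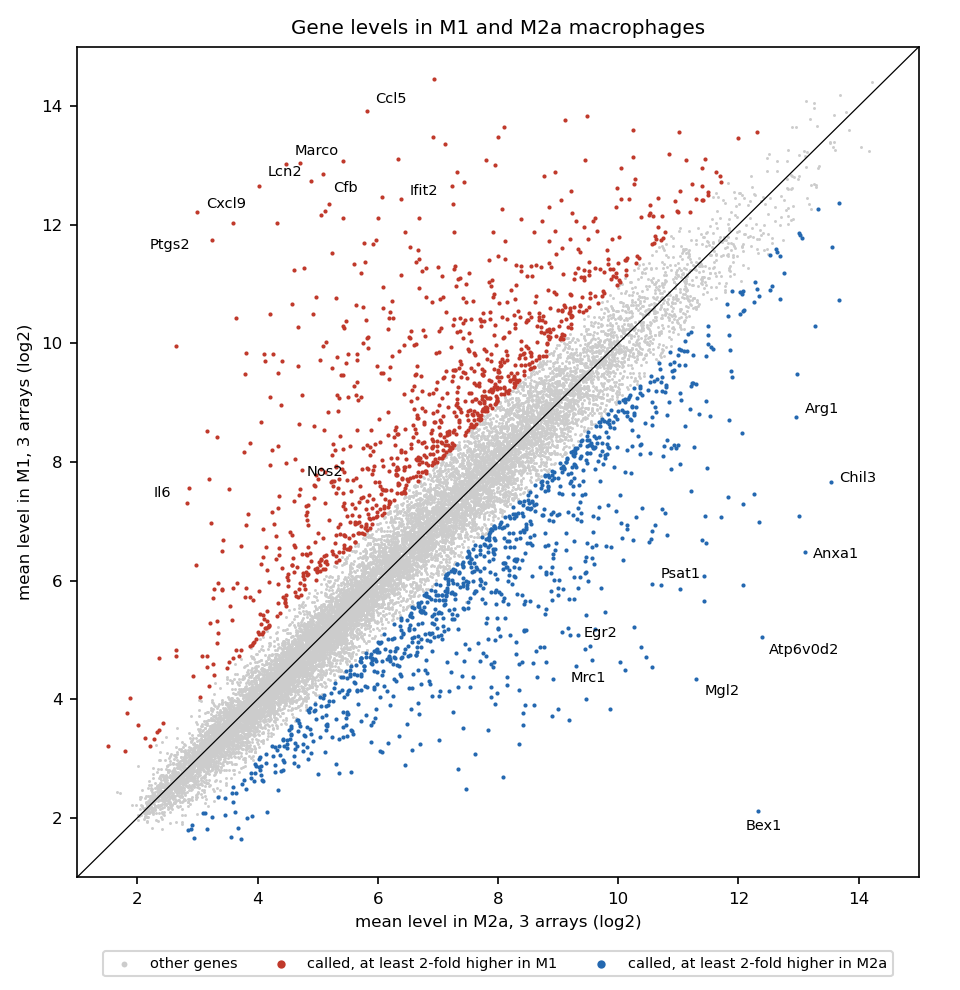
Mean log2 level of each of the 18193 genes in M2a (horizontal axis, 3 arrays) and in M1 (vertical axis, 3 arrays), with the line of equal levels. Red points are the 1031 genes called and at least 2-fold higher in M1, blue points the 1006 higher in M2a, and grey points all others, with Cxcl9 and Bex1 farthest from the line.

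Cxcl9 had the largest difference of the 10 genes named on the M1 side. This chemokine attracts T cells, is induced by IFN-g, and lay at 12.09, 12.33 and 12.23 in the M1 arrays and at 2.96, 3.09 and 2.95 in the M2a arrays. The difference was 9.22 ± 0.08 (SE, n = 3 and 3; limma adjusted p = 2.4e-10), 595-fold. The second Cxcl9 probe set gave 1.93 in the same direction, and the mean of both gave 5.57. Lcn2, a secreted protein that binds bacterial siderophores, lay at 12.62, 12.65 and 12.68 in M1 and at 4.23, 4.17 and 3.68 in M2a, a difference of 8.62 ± 0.13 (SE; limma adjusted p = 2e-09). Its M0 arrays lay at 11.73 to 13.15, overlapping with M1 and not with M2a. Marco, a scavenger receptor for bacteria, lay at 13.05, 13.01 and 13.04 in M1 and at 4.82, 4.43 and 4.19 in M2a, a difference of 8.56 ± 0.14 (SE; limma adjusted p = 2.6e-09). Ptgs2, the inducible cyclooxygenase, lay at 11.65, 11.64 and 11.93 in M1 and at 3.34, 3.44 and 2.95 in M2a, a difference of 8.50 ± 0.14 (SE; limma adjusted p = 2.4e-09). The other genes of the 10 were Ms4a6b (8.44), the lectin receptor Clec4n, also known as Dectin-2 (8.34), the chemokine Ccl5 (8.10), the formyl peptide receptor Fpr2 (7.84), complement factor B (Cfb, 7.77) and Ly6i (7.70). The M1 and M2a arrays did not overlap at any of these 10 genes, which the naming rule requires; over all genes the arrays did not overlap at 11754 (64.6%).

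The largest difference in either direction was in Bex1, on the M2a side. It lay at 2.25, 2.10 and 1.96 in M1 and at 12.34, 12.42 and 12.25 in M2a, a difference of -10.23 ± 0.09 (SE, n = 3 and 3; limma adjusted p = 2.4e-10), 1197-fold higher in M2a. The M0 arrays spread from 6.20 to 9.33, between the states. Atp6v0d2, a subunit of the proton pump that macrophages and osteoclasts use in acidification and fusion, lay at 4.99, 4.69 and 5.46 in M1 and at 12.37, 12.37 and 12.44 in M2a, a difference of -7.35 ± 0.17 (SE; limma adjusted p = 1.2e-08). Mgl2, a galactose-binding lectin induced by IL-4, lay at 4.21, 4.19 and 4.64 in M1 and at 11.09, 11.22 and 11.60 in M2a, a difference of -6.96 ± 0.16 (SE; limma adjusted p = 1.2e-08). Anxa1, annexin A1, a ligand of formyl peptide receptors, lay at 6.50, 6.35 and 6.61 in M1 and at 13.12, 13.20 and 13.01 in M2a, a difference of -6.62 ± 0.09 (SE; limma adjusted p = 8.2e-10). With the mean of its probe sets, Anxa1 differed by -4.40. Anxa1 and its receptor gene Fpr2 thus stood on opposite sides of the comparison. The other genes of the 10 were Itgax, which encodes the integrin CD11c (-6.15), Gask1b (-6.04), Bcar3 (-6.02, or -3.36 with the mean of its probe sets), the elastase Mmp12 (-5.91), the chitinase-like protein Chil3 (-5.89) and the collagenase Mmp13 (-5.77).

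**Figure D3:**
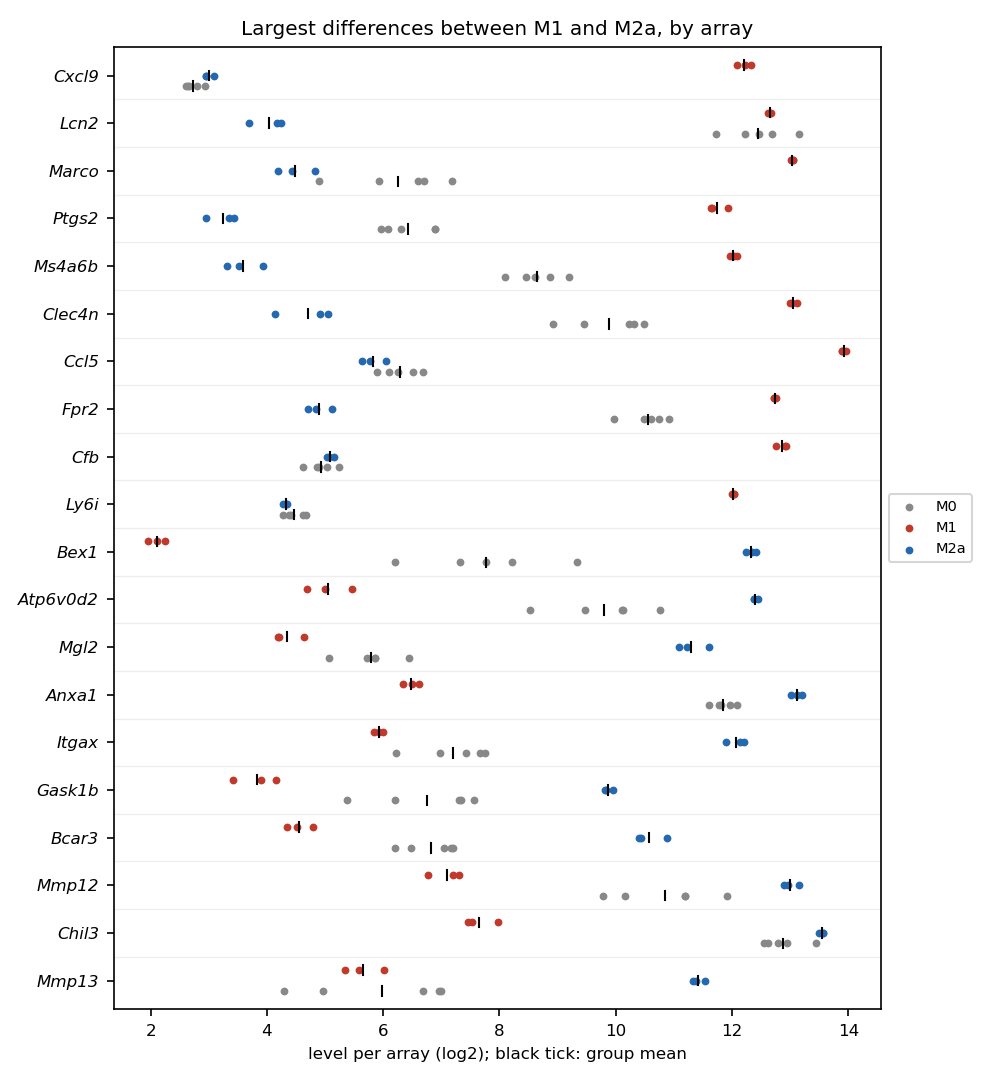
Log2 level per array (horizontal axis) of the 10 genes with the largest difference in each direction by the naming rule (rows), with M1 in red, M2a in blue and M0 in grey. Black ticks are group means. M1 and M2a are at least 5.77 log2 units apart in every row, while the M0 arrays lie at the M1 end for Lcn2, at the M2a end for Cxcl9 and between for Bex1.

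Interferon-induced genes were higher in M1 almost without exception. Of 30 measured type I interferon response genes, 28 were called higher in M1 and none higher in M2a, and 25 were at least 2-fold higher, with a median difference of 2.45. Among all genes 27% were called higher in M1 and 5.67% at 2-fold, and the median difference was -0.02. The 2 genes without a call were Ifi44l (0.00) and Ifnb1 (-0.13), which encodes interferon beta itself. Members such as these, named beyond the naming rule to complete a count or to show a role, were chosen after their values were seen. Ifit2, an RNA-binding antiviral protein, lay at 12.41, 12.43 and 12.46 in M1 and at 6.67, 6.65 and 5.86 in M2a, a difference of 6.04 ± 0.20 (SE; limma adjusted p = 8.6e-08). The related Ifit1 differed by 5.75 and the antiviral GTPase Mx1 by 5.70. All 11 measured guanylate-binding proteins and immunity-related GTPases, which attack the vacuoles of intracellular microbes, were at least 2-fold higher in M1, with a median of 4.24. Iigp1 lay at 12.35, 12.36 and 12.33 in M1 and at 5.40, 5.13 and 5.04 in M2a, a difference of 7.16 ± 0.10 (SE; limma adjusted p = 8.7e-10), and Gbp2 differed by 6.79 and Gbp6 by 5.81. The smallest difference among the 11 was that of Gbp2b, at 1.39. Among 8 interferon regulatory factors, which are transcription factors, 6 were called higher in M1, with Irf7 at 4.74, Irf1 at 3.34 and Irf8 at 1.16. Irf5 differed by 0.95 on 1 probe set and in the other direction on its second. Irf4, which IL-4 is known to induce, was the only member called higher in M2a (-1.001). It lay at the 2-fold limit, and without M2a replicate 3 its difference was -0.93.

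Promoter sequences were searched for letters related to these pathways, since members of these families moved together. RefSeq's table for the build GRCm38.p6 held 18109 promoters of 14452 of the measured genes. Each was read on both strands, from 250 bases before the start to 50 bases after it. The core of the interferon-stimulated response element (ISRE), spelled GAAA, any 2 bases, GAAA, stood in 548 of these promoters (3.03%). It stood in 81 of 1071 promoters (7.56%) of genes called at least 2-fold higher in M1 and in 33 of 1077 (3.06%) of genes at least 2-fold higher in M2a. Among the guanylate-binding proteins and immunity-related GTPases it stood in 7 of 9 promoters (77.8%), and in the type I interferon response list in 11 of 25 (44%). On the M1 side, the other motifs were nearer to their share in all promoters. The letters TTC, any 3 bases, GAA, called GAS (gamma-activated site), stood in 7.47% of the promoters on the M1 side. On the M2a side they stood in 6.87%, and in all promoters in 7.21%. The letters TTC, any 4 bases, GAA, the spacing known for STAT6, stood in 5.6% of the promoters on the M1 side, 5.11% on the M2a side and 5.87% of all. The NF-kB letters, GGG, any 2 bases, TTTCC, stood in 2.24%, 0.929% and 1.58% in the same order. In the type I interferon response list, GAS stood in 8 of 25 promoters (32%) and the STAT6 type in 4 (16%). Among the guanylate-binding proteins and immunity-related GTPases, GAS stood in 3 of 9 (33.3%) and the STAT6 type in 1 (11.1%). The NF-kB letters stood in 0 promoters of either list. Matches of different motifs may overlap, and a match is a description of letters, not of binding. The 250 bases before the start are shown for Gbp2 (chr3:142620413-142620662, plus strand) and Itgax (chr7:128129300-128129549, plus strand). Gbp2 was higher in M1 and Itgax higher in M2a. Each was reached by going down the searched named genes, from the largest difference, until a promoter held the motif. Genes with larger differences and no such match included Cxcl9 and Ptgs2 for the ISRE and Bex1 and Mgl2 for the STAT6 type. In Gbp2 the capitals mark an ISRE match on the minus strand, 59 to 50 bases before the start, and in Itgax a STAT6-type match, 127 to 118 bases before the start.
Gbp2: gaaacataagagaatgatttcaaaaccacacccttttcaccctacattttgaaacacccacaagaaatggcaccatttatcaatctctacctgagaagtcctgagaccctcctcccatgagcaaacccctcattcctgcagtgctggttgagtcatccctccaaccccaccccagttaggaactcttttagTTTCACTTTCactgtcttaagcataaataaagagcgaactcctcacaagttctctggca
Itgax: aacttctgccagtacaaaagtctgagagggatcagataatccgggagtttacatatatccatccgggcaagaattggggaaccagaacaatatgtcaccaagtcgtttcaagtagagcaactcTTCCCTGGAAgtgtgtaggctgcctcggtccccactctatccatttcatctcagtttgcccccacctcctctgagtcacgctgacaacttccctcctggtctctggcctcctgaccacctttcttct

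Genes of antigen presentation were higher in M1 for both MHC classes. Of 14 MHC class II genes, 10 were called at least 2-fold higher in M1, and their median difference over all 14 was 2.09. H2-Eb1, a class II beta chain, lay at 13.33, 13.37 and 13.38 in M1 and at 6.96, 7.33 and 7.06 in M2a, a difference of 6.25 ± 0.10 (SE; limma adjusted p = 1.8e-09). H2-Aa differed by 5.54 and H2-Ab1 by 5.47. Ciita, the master regulator of class II genes, differed by 1.18. Ifi30, a lysosomal thiol reductase that prepares antigens, was the only class II member called higher in M2a, at -1.56. H2-Ea, which C57BL/6 mice do not express because of a promoter deletion, showed 0.05 and was not called. Of 15 class I and peptide loading genes, 14 were called higher in M1 and 9 at least 2-fold, with a median of 1.54. The peptide transporter Tap1 lay at 10.95, 10.94 and 11.03 in M1 and at 7.44, 7.41 and 7.06 in M2a, a difference of 3.67 ± 0.10 (SE; limma adjusted p = 3.5e-08), or 1.29 with the mean of its probe sets. Nlrc5, which activates class I genes, differed by 2.66. H2-Q10, a class I gene known from liver, was called higher in M2a (-0.87). The class I heavy chains H2-K1 (0.76, or 1.41 with the mean of its probe sets) and H2-D1 (0.70) were higher in M1. Of 10 genes listed for the immunoproteasome and its regulators, 9 were called higher in M1, Psmb9 by 2.93, Psmb8 by 2.40 and Psmb7 by 2.09.

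Receptors and signalling genes of the LPS pathway were mostly higher in M1. Of 22 Toll-like receptor and adaptor genes, 13 were called higher in M1 and 4 higher in M2a, against 27% and 29.9% of all genes. Tlr2, a receptor for bacterial lipoproteins, lay at 10.63, 10.59 and 10.73 in M1 and at 5.95, 5.17 and 5.79 in M2a, a difference of 5.02 ± 0.18 (SE; limma adjusted p = 1.4e-07). The LPS co-receptor Cd14 differed by 3.36 and the inhibitory kinase Irak3 by 3.63, while the LPS receptor Tlr4 differed by 0.18 and was not called. Tlr13 was higher in M2a by a difference of -0.91, Tlr6 by -0.54, Tlr5 by -0.46 and the adaptor Ticam1 by -0.42. Of 15 NF-kB subunits and inhibitors, 12 were called higher in M1, 10 of them at least 2-fold, with a median of 1.29. The largest differences were in Nfkbie (3.53), Nfkbiz (2.64) and Bcl3 (2.64), members of the IkB family, while the subunit Rel was called higher in M2a (-0.99). Of 13 inflammasome genes, 11 were called higher in M1, with Mefv, which encodes pyrin, at 5.45 and Casp4 at 2.67, and Aim2 (-0.40) and the adaptor Pycard (-0.28) were called higher in M2a, the second not when single arrays were left out.

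Of 26 measured M1 markers, 24 were called higher in M1 and 21 at least 2-fold (20 without M2a replicate 3), with a median of 3.51. Il23a (-0.11) and Ido1 (0.16) were not called. Il1b, which encodes the inflammatory cytokine IL-1 beta, lay at 11.63, 11.62 and 11.82 in M1 and at 5.67, 6.20 and 5.46 in M2a, a difference of 5.92 ± 0.17 (SE; limma adjusted p = 4e-08). Il6 lay at 7.10, 7.11 and 7.73 in M1 and at 2.86, 2.60 and 3.01 in M2a, a difference of 4.49 ± 0.18 (SE; limma adjusted p = 2.4e-07). Tnf differed by 2.72 and Il12b, the p40 chain of IL-12, by 1.32. Il10, known as an anti-inflammatory cytokine, was higher in M1 too, at 6.51, 6.43 and 6.82 against 3.54, 3.71 and 3.91 in M2a, a difference of 2.87 ± 0.13 (SE; limma adjusted p = 4.5e-07). Of 28 cytokines in all, 20 were called higher in M1 and 5 higher in M2a, and none of the 5 reached 2-fold, namely Csf1 (-0.72), Tgfb1 (-0.37), Il16 (-0.23), Csf2 (-0.23) and Osm (-0.18). The probe sets of Csf1 and of Tgfb1 disagreed in sign, with means of -0.02 and -0.10 that were not called, and the calls of Il16, Csf2 and Osm were lost when single arrays were left out. Among 32 cytokine receptors, 18 were called higher in M1 and 8 higher in M2a, against 27% and 29.9% of all genes. Il12rb1 (3.51) and Il15ra (3.38) had the largest differences on the M1 side, and Il7r, the receptor for IL-7, led the M2a side with levels of 7.83, 7.94 and 7.94 in M1 and 11.51, 11.45 and 11.46 in M2a.

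Chemokines were divided between the states. Of 14 CXC chemokines, 9 were called higher in M1 and 3 higher in M2a, and of 17 CC chemokines 9 and 4. Besides Cxcl9, the M1 side held Cxcl10 (6.63), Cxcl16 (4.60), Ccl5 (8.10), Ccl2 (2.45) and Ccl4 (1.58). Ccl5 lay at 13.89, 13.97 and 13.90 in M1 and at 5.64, 6.05 and 5.78 in M2a. The M2a side held Cxcl14 (-3.78), Ppbp (-1.49), Pf4 (-0.87), Ccl6 (-4.80), Ccl9 (-2.31), Ccl24 (-0.31) and Ccl28 (-0.24), of which the last 2 lost their call when single arrays were left out. Ccl6 lay at 7.34, 7.50 and 7.54 in M1 and at 12.13, 12.27 and 12.40 in M2a, and its M0 arrays, at 12.60 to 12.86, were higher still. The chemokines Ccl22 and Ccl17, commonly used as M2 markers, were not called higher in M2a in the fit of the 6 arrays. Ccl22 lay at 4.82, 4.68 and 4.74 in M1 and at 4.43, 4.31 and 4.28 in M2a and was called slightly higher in M1 (0.41), and Ccl17 lay at 4.71 to 5.11 in M1 and at 4.97 to 5.08 in M2a (-0.15 ± 0.10, SE; limma adjusted p = 0.24). Ccl17 was called higher in M2a with array weights (-0.26; limma adjusted p = 0.032) and without M1 replicate 1 (-0.27; limma adjusted p = 0.015). The deposited table gives no detection calls, so whether such low values exceed background was not tested. Among 18 chemokine receptors, 6 were called higher in M1, led by Ccrl2 (2.50), and 5 higher in M2a, led by Ccr1 (-3.07), against 27% and 29.9% of all genes.

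The arginine-consuming enzymes Nos2 and Arg1, the usual pair that tells M1 from M2 macrophages in mice, differed in opposite directions. Nos2, the inducible nitric oxide synthase, lay at 7.71, 7.66 and 7.70 in M1 and at 5.62, 5.55 and 5.58 in M2a, a difference of 2.11 ± 0.06 (SE; limma adjusted p = 2.9e-08), 4.31-fold. Arg1, arginase 1, lay at 8.71, 8.81 and 8.78 in M1 and at 13.08, 13.13 and 12.68 in M2a, a difference of -4.20 ± 0.12 (SE; limma adjusted p = 3.3e-08), 18.4-fold higher in M2a. Arg1 was also higher in M1 than in every M0 array (4.94 to 5.63). Arg2, the mitochondrial arginase, was on the M1 side at 2.45. The arginine transporters parted as well, with Slc7a2 higher in M1 (1.31) and Slc7a1 higher in M2a (-2.01). Of the 19 genes of arginine, nitric oxide and polyamine metabolism, 10 were called higher in M1 and 6 higher in M2a. Among all genes the shares were 27% and 29.9%.

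Of 42 measured M2a markers, 30 were called higher in M2a and 6 higher in M1, with 25 and 5 at least 2-fold and a median of -1.51. Mrc1, the mannose receptor, lay at 4.37, 4.37 and 4.74 in M1 and at 10.004, 10.06 and 10.29 in M2a, a difference of -5.62 ± 0.12 (SE; limma adjusted p = 8e-09). Chil3 lay at 7.46, 7.53 and 7.98 in M1 and at 13.57, 13.57 and 13.49 in M2a, and the resistin-like protein Retnla lay at 5.77, 5.49 and 5.31 in M1 and at 8.65, 8.95 and 8.82 in M2a. The M0 arrays of Mrc1, at 8.41 to 10.28, and of Chil3, at 12.55 to 13.44, lay near M2a. For Mrc1 and Chil3 the M0 arrays were thus nearer to M2a than to M1. The 6 members higher in M1 were F13a1, a coagulation factor subunit (5.09), the scavenger receptor Stab1 (4.09), Il4ra, the receptor chain through which IL-4 and IL-13 signal (2.14), Il1rn (1.84), Tgm2 (1.26) and Ccl22 (0.41). Il4ra lay at 8.79, 8.69 and 8.91 in M1 and at 6.89, 6.68 and 6.39 in M2a. The C-type lectin Clec7a, or Dectin-1, lay at 12.41 to 12.46 in M1 and at 12.30 to 12.66 in M2a, with overlapping arrays (-0.09 ± 0.10, SE; limma adjusted p = 0.48). Without M2a replicate 3 it was called higher in M2a (-0.20; limma adjusted p = 0.024).

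Suppressors of cytokine signalling were called in both directions. Socs3, which dampens signalling of IL-6 family receptors, lay at 11.44, 11.52 and 11.63 in M1 and at 5.30, 4.97 and 5.43 in M2a, a difference of 6.30 ± 0.12 (SE; limma adjusted p = 4e-09), or 4.54 without probe sets ending in _x_at or _s_at. Socs1, which inhibits JAK kinases, differed by 4.27. Socs2 and Cish, which STAT5 is known to induce, were higher in M2a. Socs2 lay at 3.36, 3.96 and 4.43 in M1 and at 8.07, 7.93 and 7.84 in M2a, a difference of -4.03 ± 0.23 (SE; limma adjusted p = 2.1e-06), with 5 of its 6 probe sets in that direction and a mean over them of -1.55. Cish differed by -0.77. Of the 21 JAK-STAT and SOCS genes, 11 were called higher in M1 and 5 higher in M2a, against 27% and 29.9% of all genes. Stat2 (1.97) and Jak2 (1.71) were on the M1 side, and Stat6, the transcription factor of the IL-4 pathway, was slightly higher in M2a (-0.20), a call lost without M2a replicate 2 (-0.18) and with the mean of its probe sets (-0.09).

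Of 36 transcription factors, 14 were called higher in M1 and 19 higher in M2a, with 7 and 12 at least 2-fold (7 and 10 without M2a replicate 3). Among all genes 27% were called higher in M1 and 29.9% higher in M2a. Egr2, a factor induced by IL-4, lay at 5.12, 5.01 and 5.53 in M1 and at 10.35, 10.37 and 10.06 in M2a, a difference of -5.04 ± 0.14 (SE; limma adjusted p = 3.8e-08). Epas1, the hypoxia factor HIF-2 alpha, differed by -4.55 (-2.42 with the mean of its probe sets), while its relative Hif1a, on the M1 side, differed by 2.64. Pparg, a lipid-sensing nuclear receptor, lay at 4.76, 4.36 and 4.67 in M1 and at 8.20, 8.28 and 8.59 in M2a, a difference of -3.76 ± 0.13 (SE; limma adjusted p = 1.2e-07), and Myc differed by -1.48. On the M1 side, Spic, a factor of iron-recycling macrophages, lay at 10.39, 10.42 and 10.35 in M1 and at 5.59, 5.31 and 5.49 in M2a (4.92), Maf differed by 3.76 and Batf2 by 3.35.

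Receptors by which macrophages recognise sugars, lipoproteins and dying cells were split between the states. Of 17 C-type lectin, chitinase-like and resistin-like genes, 7 were called in each direction. Among all genes, 27% were called higher in M1 and 29.9% higher in M2a. Clec4n lay at 13.001, 13.11 and 13.03 in M1 and at 4.14, 4.92 and 5.05 in M2a, and Clec4e, the receptor Mincle, differed by 7.67. Of 20 scavenger and efferocytosis genes, 7 were called higher in M1 and 10 higher in M2a, against the same 27% and 29.9%. The receptor kinases Mertk and Axl, which bind dying cells through bridging proteins, were on the M1 side. Mertk lay at 11.28, 11.25 and 11.23 in M1 and at 7.52, 7.65 and 6.61 in M2a (3.99), and Axl differed by 4.35, but only 1 of its 2 probe sets had that direction. The bridging protein Mfge8 lay at 6.66, 6.68 and 6.70 in M1 and at 11.65, 11.67 and 10.86 in M2a, a difference of -4.71 ± 0.20 (SE; limma adjusted p = 3.2e-07). The bridging proteins Pros1 (-1.73) and Gas6 (-0.78) were also higher in M2a.

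Complement and Fc receptor genes were mostly higher in M1. Of 16 complement genes, 12 were called higher in M1 and 4 higher in M2a, against 27% and 29.9% of all genes. C1qa, a chain of the complement initiator C1q, lay at 11.57, 11.62 and 11.53 in M1 and at 6.83, 7.14 and 6.04 in M2a (4.90), and C1ra differed by 4.16. The 4 members higher in M2a were the integrin subunits Itgax (-6.15) and Itgam (-1.44) of the complement receptors, C3ar1 (-0.58) and Cd55 (-0.53). With the mean of their probe sets these last differences were -1.24 and -1.42, and Cd55 lost its call without M1 replicate 2 (-0.45). Fcgr1, the high-affinity IgG receptor, lay at 11.26, 11.24 and 11.15 in M1 and at 6.86, 6.80 and 6.55 in M2a, a difference of 4.48 ± 0.09 (SE; limma adjusted p = 6e-09), and 5 of 8 Fc receptor genes were called higher in M1. Of 18 costimulation and checkpoint genes, 11 were called higher in M1, with the adhesion ligand Icam1 at 5.57, Cd274 (PD-L1) at 3.37, Cd40 at 2.67 and Cd86 at 2.42 (5.46 on the probe set with the highest mean of these 6 arrays), and 4 were called higher in M2a, namely Havcr2 (-2.14), Cd276 (-1.46), Vsir (-0.83) and Cd200r1 (-0.70).

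Genes of cell fusion and acidification were mostly higher in M2a. The fusion list shares Atp6v0d2 with the proton pump list and Ctsk and Acp5 with the cathepsins. Of 15 cell fusion and osteoclast genes, 11 were called higher in M2a and 10 at least 2-fold, with a median of -1.99. Cdh1, E-cadherin, lay at 2.67, 2.45 and 2.35 in M1 and at 7.35, 7.18 and 7.86 in M2a, a difference of -4.98 ± 0.17 (SE; limma adjusted p = 1e-07), and the integrin subunit Itgb3 differed by -4.63 (-2.84 with the mean of its probe sets). Ctsk, a cathepsin that breaks down collagen, lay at 7.21, 7.01 and 7.05 in M1 and at 11.50, 11.35 and 11.47 in M2a, a difference of -4.35 ± 0.08 (SE; limma adjusted p = 3e-09). Acp5, the acid phosphatase TRAP that marks osteoclasts, was instead higher in M1 (0.82), and so was their transcription factor Nfatc1 (0.58), with 3 of its 5 probe sets in that direction. Of 17 proton pump subunits, 11 were called higher in M2a and 1, Atp6v0b (0.42), higher in M1, and their median was -0.38. Beside Atp6v0d2, only Atp6v0a1 (-2.997) and Atp6v1b2 (-1.54) reached 2-fold, the last not with the mean of its probe sets (-0.82). Of 26 cathepsins and lysosomal genes, 14 were called higher in M2a and 8 higher in M1, against 29.9% and 27% of all genes. Ctsl (-1.92) and Lamp2 (-1.59, or -0.67 with the mean of its probe sets) were on the M2a side, whereas Ctsc (4.35) and Ctsh (2.88) were on the M1 side.

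**Figure D4:**
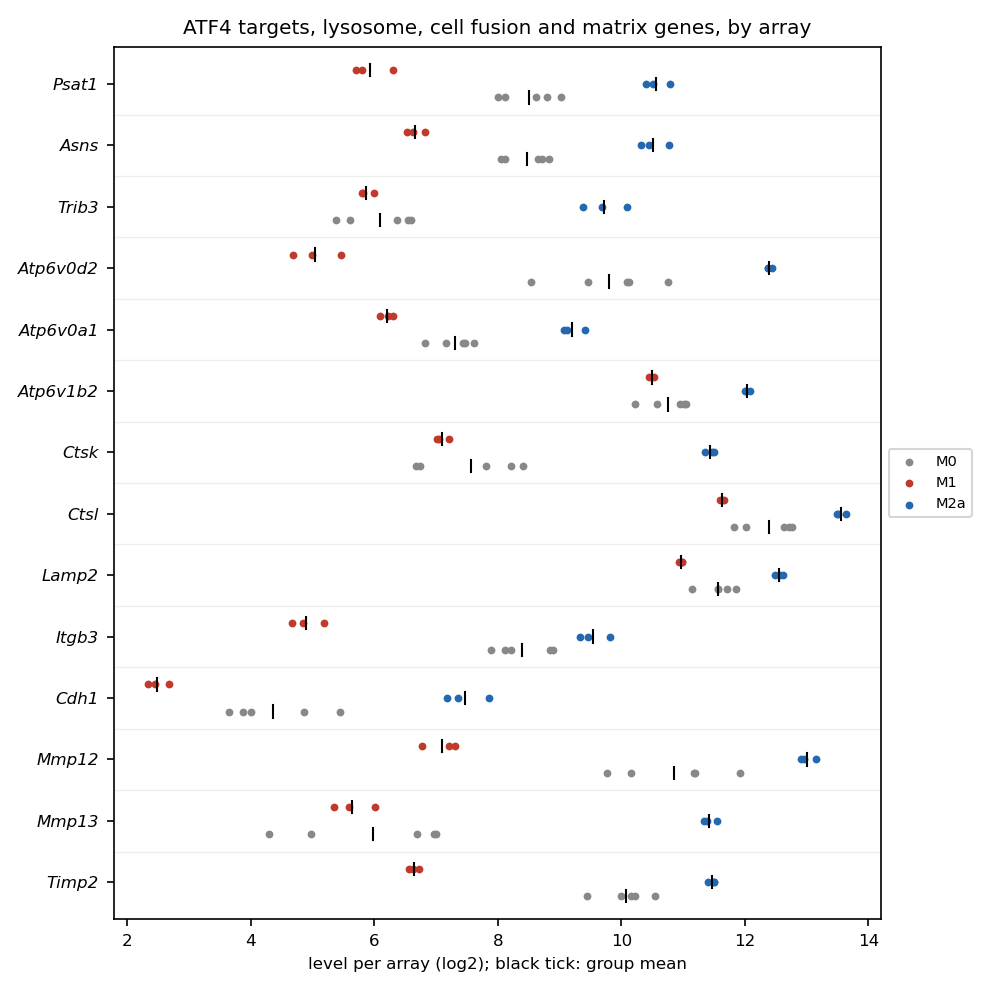
Log2 level per array (horizontal axis) of genes of the ATF4 response, proton pump, lysosome, cell fusion and matrix (rows), with M1 in red, M2a in blue, M0 in grey and group means as black ticks. In each of these genes, chosen from those higher in M2a, the M1 and M2a arrays do not overlap, and the distance runs from 1.54 for Atp6v1b2 to 7.35 for Atp6v0d2.

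The matrix metalloproteinases divided by enzyme rather than moving together. Of 28 metalloproteinase, inhibitor and repair genes, 12 were called higher in M1 and 15 higher in M2a, against 27% and 29.9% of all genes. Mmp12 lay at 6.77, 7.21 and 7.30 in M1 and at 13.15, 12.96 and 12.90 in M2a, Mmp13 differed by -5.77, and the inhibitor Timp2 differed by -4.83 (-3.12 with the mean of its probe sets). The membrane protease Mmp14 (5.47), the gelatinase Mmp2 (3.80) and Thbs1, thrombospondin 1 (6.12), were higher in M1.

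Genes of amino acid supply were mostly higher in M2a. Of 22 genes of the ATF4 response, which raises amino acid uptake and serine synthesis under stress, 17 were called higher in M2a and 16 at least 2-fold (14 without M2a replicate 3), with a median of -1.72. Psat1, an enzyme of serine synthesis, lay at 5.71, 5.80 and 6.30 in M1 and at 10.51, 10.41 and 10.79 in M2a, a difference of -4.63 ± 0.16 (SE; limma adjusted p = 1.3e-07). Asns, asparagine synthetase, lay at 6.63, 6.52 and 6.82 in M1 and at 10.45, 10.32 and 10.78 in M2a, a difference of -3.86 ± 0.13 (SE; limma adjusted p = 8.8e-08), and the pseudokinase Trib3 differed by -3.85. The 3 members called higher in M1 were Nupr1 (2.06) and both chains of the cystine transporter, Slc7a11 (1.84) and Slc3a2 (0.45). Chaperones went the other way, with 15 of 21 called higher in M1 and 2 higher in M2a (median 0.80). The M1 side held Manf (2.17), Creld2 (2.01) and Sdf2l1 (1.57). The M2a side held Herpud1 (-0.91) and Hsph1 (-0.57), and the 2 probe sets of Hsph1 disagreed in sign.

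Among genes of energy metabolism, Acod1, which makes itaconate from a TCA cycle intermediate, lay at 12.16, 12.09 and 12.10 in M1 and at 5.47, 5.55 and 5.22 in M2a, a difference of 6.70 ± 0.09 (SE; limma adjusted p = 9.5e-10). Apart from Acod1 and Pdk4 (1.17), none of the 25 TCA cycle genes reached 2-fold, with 5 called higher in M1, 13 higher in M2a and a median of -0.16. None of 28 respiratory chain genes reached 2-fold in either direction. Of these, 5 were called higher in M1 and 10 higher in M2a (median -0.06), against 27% and 29.9% of all genes. Of 20 glycolysis genes, 14 were called higher in M1 and 5 higher in M2a. Pfkfb3, whose product activates phosphofructokinase, lay at 10.75, 10.87 and 10.88 in M1 and at 7.90, 7.99 and 7.90 in M2a, a difference of 2.90 ± 0.06 (SE; limma adjusted p = 1e-08), while its relative Pfkfb4 was higher in M2a (-1.08). Of 27 fatty acid genes, 6 were called higher in M1 and 14 higher in M2a, against 27% and 29.9% of all genes. The M2a side held the monoglyceride lipase Mgll (-3.36, or -2.19 with the mean of its probe sets) and lipoprotein lipase Lpl (-2.94). Among 22 cholesterol and LXR genes, Apoe, an apolipoprotein induced by LXR, lay at 13.78, 13.78 and 13.73 in M1 and at 9.22, 9.53 and 8.59 in M2a, the LXR alpha gene Nr1h3 differed by 2.67, and the synthesis enzymes Hmgcs1 (-1.31) and Sqle (-1.21) were higher in M2a.

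Among iron genes, Tfrc, the transferrin receptor that imports iron, lay at 7.09, 6.80 and 6.94 in M1 and at 10.72, 10.54 and 10.57 in M2a, a difference of -3.66 ± 0.09 (SE; limma adjusted p = 1.8e-08), or -1.55 with the mean of its probe sets. Hmox1, which frees iron from heme, lay at 13.55, 13.60 and 13.67 in M1 and at 10.88, 9.79 and 10.07 in M2a (3.36), and Slc40a1, the iron exporter, was on the M1 side at 3.79 with 1 low array, M2a replicate 3 (5.67, against 7.54 and 7.51 in the other M2a arrays). Of 17 iron and heme genes, 9 were called higher in M1 and 4 higher in M2a, against 27% and 29.9% of all genes. Among 19 antioxidant genes, 14 were called higher in M1, with mitochondrial superoxide dismutase Sod2 at 3.65, and Gpx1 was the only 2-fold member on the M2a side (-1.13). Of the NADPH oxidase subunits only Cybb reached 2-fold (2.54). Of 17 prostaglandin and leukotriene genes, 5 were called higher in M1 and 7 higher in M2a, against 27% and 29.9% of all genes. Ptges, the synthase that follows Ptgs2 in prostaglandin E2 synthesis, lay at 11.44, 11.37 and 11.32 in M1 and at 5.79, 5.74 and 5.82 in M2a, a difference of 5.59 ± 0.06 (SE; limma adjusted p = 5.4e-10), and the lipoxygenase Alox15 was on the M2a side (-1.61).

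Cell cycle genes were called in both directions. Of 29 replication genes, 12 were called higher in M1 and 10 higher in M2a (median 0.11), and of 26 mitosis genes 6 and 7 (median -0.13), against 27% and 29.9% of all genes. Mki67 lay at 7.84, 7.75 and 7.71 in M1 and at 6.80, 6.76 and 6.34 in M2a (1.14), below every M0 array (9.85 to 10.73). Dut was higher in M2a (-2.43), and Rrm2 (-2.004) had 2 of 3 probe sets in that direction; the other gave 0.90, higher in M1, and stands for the gene when probe sets are chosen over these 6 arrays alone.

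Markers of cell types checked the label. Of 11 macrophage identity genes, 9 were called higher in M1, with Aif1 at 6.51 and Csf1r, the receptor of the growth factor M-CSF, at 1.46, and Itgam was higher in M2a. Adgre1, which encodes the sorted protein F4/80, lay at 12.39, 12.37 and 12.49 in M1 and at 11.85, 11.85 and 11.51 in M2a (0.67), and Cd68 did not differ beyond its spread (-0.03 ± 0.06, SE; limma adjusted p = 0.72). Both states thus carried the sorted marker. Monocyte and neutrophil markers moved with the state. All 5 monocyte markers were called higher in M1 (3 at 2-fold, 2 without M2a replicate 3), and the log2 of their summed level was 10.25 to 10.35 in M1 and 7.07 to 7.18 in M2a. Of 13 neutrophil-lineage markers, 7 were called higher in M1 and 3 higher in M2a, and the log2 of their summed level was 13.67 to 13.77 in M1 and 9.49 to 9.59 in M2a. Lcn2, S100a8 (5.10) and S100a9 (4.38) made up the largest of these differences, whereas the granule enzyme gene Mpo had a mean of 3.97 in M1 and 4.76 in M2a. Of 15 stroma and endothelium markers, 9 were called higher in M1 and none higher in M2a. Sparc differed by 2.88 (1.67 with the mean of its probe sets) and Col1a2 by 2.29 (1.36 with that mean). Of the 3 Col1a2 probe sets, 2 had that direction. The log2 of the summed level of the 15 markers was 9.60 to 9.71 in M1 and 8.60 to 8.75 in M2a. Of 15 mast cell, basophil and eosinophil markers, 11 were called higher in M2a and 3 higher in M1, and their summed level was 8.47 to 8.48 in M1 and 9.03 to 9.12 in M2a. No marker on the dendritic cell, erythroid or lymphocyte lists reached 2-fold. Itgax (-6.15), which encodes CD11c, was not on the dendritic cell list. The part of these cell types in the gene differences above was not tested.

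**Figure D5:**
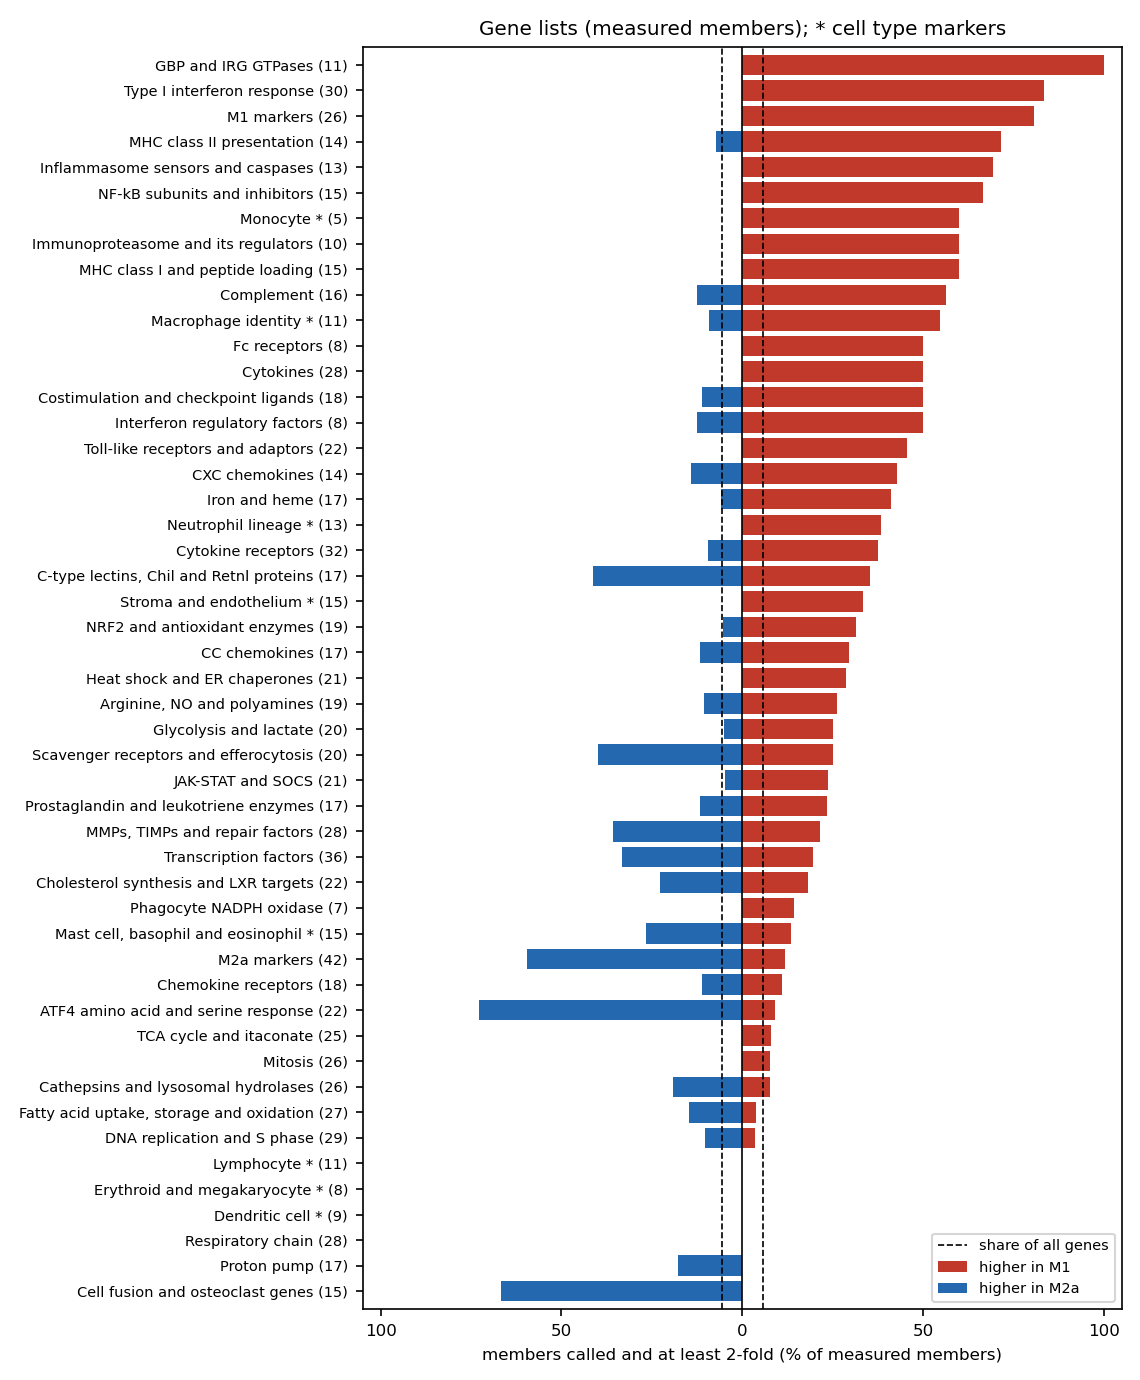
Share of each list's measured members (number in brackets) that were called and at least 2-fold higher in M1 (red, to the right) or in M2a (blue, to the left), in percent. Dashed lines mark the share among all genes, 5.67% on the M1 side and 5.53% on the M2a side; the interferon GTPases reach 100% on the M1 side, and the ATF4 response and cell fusion genes reach farthest on the M2a side.

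The M0 level places each difference beside the whole untreated cultures. Some markers of other cell types were far higher in those cultures. The neutrophil-lineage marker Mpo had a mean of 11.57 in M0, 3.97 in M1 and 4.76 in M2a. Prg2, an eosinophil-list marker, had means of 12.53, 5.67 and 3.92. Lcn2, also a neutrophil-lineage marker, had its M0 mean between the states. The part of cell make-up in the M0 positions was not tested. Among the 1031 genes at least 2-fold higher in M1, the M0 mean lay below both states for 301 (29.2%), between them for 191 nearer to M1 (18.5%) and 410 nearer to M2a (39.8%), and above both for 129 (12.5%). Among the 1006 genes at least 2-fold higher in M2a, it lay below both for 169 (16.8%), between them for 326 nearer to M1 (32.4%) and 256 nearer to M2a (25.4%), and above both for 255 (25.3%). Arg1 and Cxcl9 had M0 below both states, and S100a8, Plac8, F13a1 and Apoe had M0 above both. The M0 arrays differed from the other arrays in Xist (11.74 to 12.01) and Eif2s3y (2.36 to 3.02), and their poly-A spikes averaged 8.47 to 9.48. At all 45101 probe sets, M0 arrays 1 to 3 and M0 arrays 4 and 5 had means that agreed within 0.0001, so these 5 arrays do not vary independently, and no test against M0 is given.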

How the data were processed

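The values are log2 probe-set values deposited by the authors, 45101 per array, running from 0.73 to 14.49 with array medians of 5.14 to 5.34. The submitters' processing notes name Partek, with no version; the sources used here do not give the background correction, probe summary or normalization. Of the probe sets, 34945 had 1 gene symbol, 932 had several and were left out, 64 were controls and 9160 had no gene in the probe table. No filter on low values was used. Symbols were updated through the Entrez identifier. Precision is limited by the number of arrays.

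The 6 arrays were fitted with limma 3.58.1 in R 4.3.3 (lmFit, eBayes), with Benjamini-Hochberg adjustment over 18193 genes calling genes at 0.05. A difference is M1 minus M2a, with the fit's standard error (SE). In simulated data with 18193 genes, 100 genes were changed 2-fold and 100 were changed 4-fold, with independent noise in each array. The fit recovered 93% of the 2-fold and 99% of the 4-fold changes, and 5 of 197 calls (2.54%) were unchanged genes. A far larger share was called in the measured data (56.9%), so these rates need not hold there. Of 936 genes in 49 lists, 835 were measured. The rule for named genes took the 10 largest called differences in each direction with no overlap of arrays and no clone-like symbol, up to 3 called genes per list and direction, and a set of marker genes. The comparison, the lists and the rule were chosen with earlier results of these data known. Alternatives were other normalizations, probe-set choices, low-value filters, variance models, array weights, all 11 arrays in the fit, a block for the replicate number, leaving out each array, and limma's treat.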

Additional observations from a re-analysis of the deposited data

Results flagged for a closer look

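Of the 9160 probe sets with no gene in the probe table, which enter no comparison above, 699 (7.63%) were called and at least 2-fold different between M1 and M2a in a limma fit of their own, 379 higher in M1 and 320 higher in M2a. The largest were 1450136_at, with a mean of 11.48 in M1 and 3.15 in M2a, and 1417185_at, with 13.70 and 5.49. On the M2a side they were 1422411_s_at, with a mean of 4.12 in M1 and 10.06 in M2a, and 1449254_at, with 6.76 and 12.58. Their genes are not named here.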

How the results depend on the processing

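With all 11 arrays in one fit, 5341 genes were called (10357 with 6 arrays), 2500 higher in M1 and 2841 higher in M2a. Among genes above the median gene, 6679 were called, 3153 of them higher in M2a; fewer genes are tested there. With limma's treat against a log2 difference of 1, 1308 genes were called, 696 higher in M1 and 612 higher in M2a. Leaving out 1 array at a time, 8966 to 9880 genes were called, 4297 to 4658 higher in M1 and 4669 to 5222 higher in M2a, with 2025 to 2049 at 2-fold (1007 to 1068 and 981 to 1022). Deviations of same-numbered M1 and M2a arrays had correlations of 0.038, 0.0092 and 0.016, against -0.028 to 0.014 for the other pairs. Whether same-numbered arrays share a mouse or culture cannot be told from such small values. With the replicate block, 10093 genes were called, 4789 and 5304 by direction, with 2037 at 2-fold. Of 3547 values of the genes named above under 18 alternatives, 3469 kept direction and side of the threshold, and 19 genes lost a call in some setting, 10 of them in one other than the fit of all 11 arrays. Gained calls that kept the direction of the main fit made up 7 values. They were Ccl17, Ido1 (0.18 and 0.24) and Tlr4 (0.26 and 0.27), each with array weights and without M1 replicate 1. The remaining value was Clec7a without M2a replicate 3. Rrm2 turned to 0.90 with the highest mean over the 6 arrays and without _x_at and _s_at probe sets, as its probe sets disagree. Values near 0 that were not called changed sign: Cd68 was 0.0002 with array weights, H2-Ea -0.0022 with quantile normalization, -0.0276 with the mean of its probe sets and -0.0005 with array weights, Ifi44l -0.1013, -0.1063 and -0.0303 with the mean of probe sets, without _x_at and _s_at and with array weights, and Tlr4 -0.0587 with the mean of probe sets. Leaving out 1 array, Cd68 ranged from -0.0577 to 0.0070, H2-Ea from -0.0319 to 0.1475 and Ifi44l from -0.0690 to 0.0440. Il10rb ranged from -0.1887 (without M2a replicate 3) to 2.4510. It was not called in the main fit (1.57; limma adjusted p = 0.31). Without M2a replicate 3 its sign turned and it was called higher in M2a (limma adjusted p = 0.032). Axl fell to 2.09 with the mean of its probe sets. Of 1764 list counts, 1700 stayed within 1.5 times. The arrays have no detection calls, so low values carry no bound from background.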
